A study of Mus musculus with 36 samples.

Results

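Cells of the lung hold on to the basement membrane and to each other through a small set of gene families: integrins, laminins, cadherins, catenins, claudins, connexins and the plaque proteins of junctions. In these data the families were represented by 36 genes, out of 6971 genes with a single gene symbol on the array. They were chosen by a rule on gene symbols, with earlier results of these data known. They comprised 4 integrin alpha chains, 4 integrin beta chains, 5 laminin chains, 6 cadherins, 2 desmosomal cadherins, 6 catenins and catenin-like genes, 5 claudins and claudin-domain genes, 2 connexins and the zonula occludens gene Tjp1. Itgb3bp, a centromere protein and nuclear receptor coregulator named for binding an integrin tail, matched by symbol only. Cdh5 and Gja4, which mark endothelium, were left out by the rule. The 36 genes were read by 48 cDNA spots, and 29 of them rested on a single spot.

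Each of the 36 arrays compared whole lungs of BALB/c mice kept at 0.5 atm with lungs of time-matched control mice, 4 arrays at each of 9 days. The hypoxia groups were taken after 1, 3, 7, 14 and 21 days at 0.5 atm. The recovery groups, labelled days 22, 24, 28 and 35, were taken after the 21 days of hypoxia had ended. The labels describe 1 pool of 5 mice per condition and day. None says whether the 4 arrays repeat 1 pool or come from separate pools, so p-values from arrays measure a spread that may be technical.

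A value is the log2 ratio of hypoxic (or recovering) over control lung, so that 0 means no difference. This direction is likely and not certain, since it is read from the protocol's wording (hypoxic before control, Cy5 before Cy3), which records no dye swap. If hypoxic lung had the same dye on every array, a dye effect on a gene would also move its ratio from 0. The tests against 0 cannot tell such an effect apart from a change in hypoxic lung. The arrays hold ratios and no levels, so the lung could not be checked against its marker genes, and genes cannot be ranked by abundance. In RNA of whole lung, fewer cells of a type and less RNA per cell cannot be told apart. Arrays 1 and 2 of a day resembled each other, as did arrays 3 and 4, more than arrays of different pairs did (median r = 0.687 within pairs and 0.291 across them, over all features), so lead results are also given within the pairs. The SD of all ratios on an array ran between 0.17 and 0.52, and it was widest on the first array of day 28.

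Integrins are paired receptors, 1 alpha and 1 beta chain, that bind matrix outside the cell and the cytoskeleton inside it. Laminins are 3-chain proteins of the basement membrane, and integrins with the α3, α6, β1 and β4 chains are among their receptors. Cadherins join neighbouring cells and are tied to actin by catenins, desmosomal cadherins are tied to intermediate filaments, claudins seal tight junctions with the help of zonula occludens proteins, and connexins form channels between cells. In the lung these families set the tightness of the alveolar and airway epithelium and of the vessel wall.

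The RefSeq promoter table (GRCm38.p6, 250 bases before to 50 after each start) held 23 of the 36 genes. The windows of 4 genes are shown, picked after their values were seen, and no result below depends on them. Cdh11 and Itga6 were not among the 23 genes held. Cldn7 and Lama5 rose over hypoxia under every alternative that averaged a gene's spots, and Itga9 and Itgb1 were the lowest at day 28. The Cldn7 window is chr11:69964529-69964828 (plus strand), the Lama5 window chr2:180225810-180226109 (minus strand), the Itga9 window chr9:118711442-118711741 (plus strand) and the Itgb1 window chr8:128685404-128685703 (plus strand). The Itga9 window lies inside the span of the gene, and Cldn7 had 2 windows of which 1 is shown. Capitals mark matches, on either strand, to the core letters bound by hypoxia-inducible factor (ACGTG or GCGTG) or to the E-box CAGGTG, which is bound by repressors of epithelial genes such as Snai1.
Cldn7: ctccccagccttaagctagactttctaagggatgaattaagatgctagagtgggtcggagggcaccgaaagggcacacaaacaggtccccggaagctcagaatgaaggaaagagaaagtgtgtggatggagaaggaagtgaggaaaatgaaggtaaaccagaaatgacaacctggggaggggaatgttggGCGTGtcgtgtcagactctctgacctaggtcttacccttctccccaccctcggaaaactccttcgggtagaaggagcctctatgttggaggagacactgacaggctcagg
Lama5: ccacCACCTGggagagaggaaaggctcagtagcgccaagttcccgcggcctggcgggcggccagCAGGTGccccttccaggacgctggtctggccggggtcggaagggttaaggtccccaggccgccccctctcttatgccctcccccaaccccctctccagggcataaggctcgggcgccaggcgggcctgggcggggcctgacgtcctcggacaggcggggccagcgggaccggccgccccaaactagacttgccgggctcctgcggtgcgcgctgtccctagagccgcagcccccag
Itga9: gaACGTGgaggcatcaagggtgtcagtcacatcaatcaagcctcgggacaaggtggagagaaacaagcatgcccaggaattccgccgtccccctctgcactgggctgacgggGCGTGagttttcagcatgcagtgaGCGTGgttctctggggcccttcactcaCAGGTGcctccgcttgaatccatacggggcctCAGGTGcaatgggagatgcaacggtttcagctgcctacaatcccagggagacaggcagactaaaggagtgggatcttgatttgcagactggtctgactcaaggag
Itgb1: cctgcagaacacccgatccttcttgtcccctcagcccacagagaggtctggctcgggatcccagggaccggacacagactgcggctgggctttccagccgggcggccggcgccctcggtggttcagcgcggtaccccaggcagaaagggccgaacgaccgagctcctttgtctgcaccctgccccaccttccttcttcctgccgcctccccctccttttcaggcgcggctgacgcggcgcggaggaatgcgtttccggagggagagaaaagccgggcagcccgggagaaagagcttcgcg
Cldn7 held 1 hypoxia-inducible factor core and no E-box, Lama5 held no core and 2 E-boxes, Itga9 held 3 cores and 2 E-boxes, and Itgb1 held neither. The core was present in 43.8% of all 32851 windows and in 19 of the 31 windows of these families (61.3%), and the E-box in 20.2% of all windows and 6 of the 31 (19.4%). The GC content was 52.0% in the Cldn7 window, 72.7% in Lama5, 56.7% in Itga9 and 67.3% in Itgb1, against a median of 52.7% over all windows. Such matches describe letters only.

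Over the 5 hypoxia days, 13 of the 36 genes passed the test, 7 higher and 6 lower in hypoxic lung. The test was limma on the means of the days, with Benjamini-Hochberg adjustment over 12159 features and a threshold of 0.05. Of all features tested, 42.4% passed (24.7% higher and 17.7% lower), so the share of 36.1% among these genes was not above the background. The median log2 ratio of the 36 genes was -0.0027, against 0.026 over all features, and the median size of the change was 0.105, against 0.111. The 7 genes that rose were Cdh11, Cldn7, Lama1, Lama5, Itgb4, Gjb5 and Lamb1, and the 6 that fell were Itga6, Itga9, Cdh1, Cldn8, Dsc2 and Ctnnd1. Without replicate 3 of every day the count was 8, of which 7 were among the 13, and Cdh1, Dsc2, Gjb5, Itgb4, Lama1 and Lamb1 lost their calls. With each array centred on its median it was 14, of which 6 were higher and 8 lower.

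**Figure D1:**
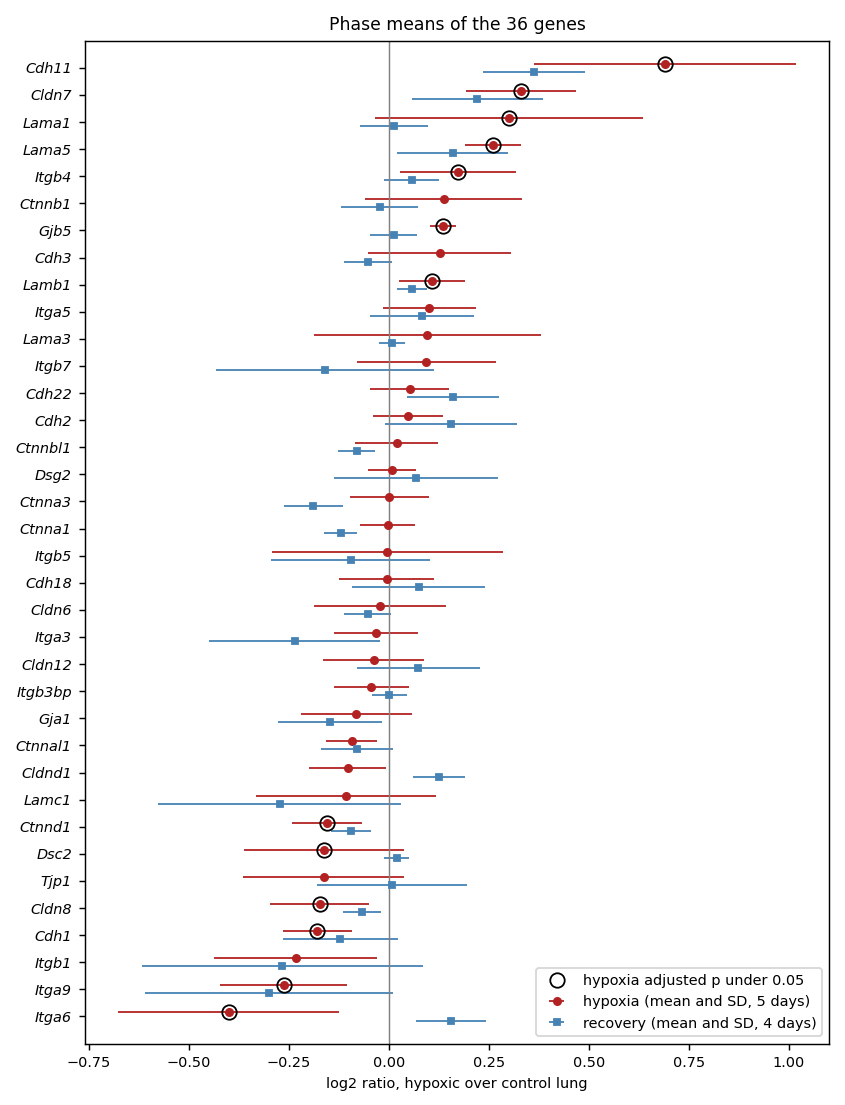
Mean log2 ratio, hypoxic over control lung, of each of the 36 genes (rows) over the 5 hypoxia days and the 4 recovery days, with the SD over days as bars. Cdh11 lies farthest to the right in both phases, and Itga6 is left of 0 in hypoxia and right of 0 in recovery.

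The integrin alpha chains gave 2 falls and no rise among 4 genes, against 17.7% of all features lower and 24.7% higher. Itga6, the laminin-binding α6 chain that pairs with β1 or β4 and anchors epithelium in hemidesmosomes, was at its lowest at day 7, with log2 ratios of -0.74, -0.79, -0.68 and -0.82 on the 4 arrays. All 4 arrays of that day lay close together. At day 1 the Itga6 mean was -0.55 ± 0.12 and at day 3 it was -0.45 ± 0.07 (SD, n = 4 arrays each), and both passed (limma adjusted p = 1.25e-07 and 3.64e-06). The Itga6 arrays of day 14 read 0.07, -0.33, -0.05 and -0.25, and those of day 21 read -0.14, -0.08, -0.16 and -0.06, and neither day passed. The day means of Itga6 were therefore lowest early in the exposure and nearer to control from day 14. A steady rise or fall over the hypoxia days was not called for Itga6, and early and late days were not otherwise compared. Itga6 did pass at day 14 with each array centred on its median, and without replicate 1. Over the 5 hypoxia days its mean log2 ratio was -0.40 ± 0.28 (SD, n = 5 days, limma adjusted p = 0.0024), a ratio of 0.758 to control lung. It was nearly the same in the replicate pairs, -0.41 in arrays 1 and 2 and -0.39 in arrays 3 and 4, and 19 of the 20 arrays lay below 0.

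Itga6 was the gene of the 36 whose phases stood farthest apart. In the recovery phase its mean was above 0 on 4 of 4 days, and at day 35 its arrays read 0.28, 0.26, 0.26 and 0.23. The day 35 arrays lay close together and above every hypoxia array (limma adjusted p = 0.013 at day 35), but the call was lost when the replicate pair was a random block (adjusted p = 0.27). The means of Itga6 were -0.40 in hypoxia and 0.16 ± 0.09 in recovery (SD, n = 5 and 4 days). The difference between phases, -0.56 ± 0.12 (SE), did not pass (limma adjusted p = 0.095), and passed when day 21 was left out (-0.63, adjusted p = 0.039).

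Itga9, the α9 chain that pairs with β1 and binds tenascin and other matrix proteins, averaged -0.26 ± 0.16 over hypoxia (SD, n = 5 days, limma adjusted p = 0.028). Its highest day mean was at day 35, where the arrays read -0.32, -0.11, 0.26 and 0.05, and its lowest was at day 28, with -1.21, -0.82, -0.23 and -0.64. The array sets of these days overlapped in part, since the -0.32 of day 35 lies below the -0.23 of day 28. The Itga9 change was carried by arrays 1 and 2 (-0.50, adjusted p = 0.0020), while arrays 3 and 4 gave -0.06 (adjusted p = 0.59), and 17 of 23 alternatives kept the call. Itga5, a chain of the fibronectin receptor, and Itga3, a laminin receptor chain, averaged 0.10 ± 0.12 and -0.03 ± 0.10 over hypoxia (SD, n = 5 days) and did not pass.

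Among the 4 integrin beta chains, Itgb4 was the one that passed over hypoxia, and it was higher, as were 24.7% of all features. Itgb4, the β4 chain found with α6 in hemidesmosomes, read 0.51, 0.36, 0.30 and 0.36 at day 7, its highest day, and 0.18, -0.11, -0.03 and -0.07 at day 22, its lowest. The arrays of these days did not overlap. Here and below, the highest and lowest days of a gene were picked from these values, so a gap between their arrays is no test. Itgb4 averaged 0.17 ± 0.14 over the hypoxia days (SD, n = 5 days, limma adjusted p = 0.017), with 0.20 in arrays 1 and 2 and 0.14 in arrays 3 and 4, and it passed singly at day 3 (0.25, adjusted p = 0.0049) and day 7 (0.38, adjusted p = 3.3e-05). At day 7, its partner Itga6 was at its lowest and Itgb4 at its highest. The Itgb4 call was lost without replicate 3, without day 3 or without day 7 (adjusted p up to 0.074).

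Itgb1, the β1 chain shared by most laminin, collagen and fibronectin receptors, averaged -0.23 ± 0.20 over hypoxia (SD, n = 5 days) and missed the threshold (limma adjusted p = 0.079). At day 7 the 3 arrays with a value for Itgb1 read -0.52, -0.66 and -0.61, and that day passed (adjusted p = 0.00083). Itgb7, the leukocyte β7 chain, was called in opposite directions at 2 days: it was higher at day 7, with 0.38, 0.69, 0.18 and 0.19, and lower at day 35, with -0.55, -0.17, -0.41 and -0.66. No Itgb7 array of day 7 overlapped those of day 35 (adjusted p = 0.0068 and 0.0080). Itgb5, the β5 chain that pairs with αv, was lower at day 1, with -0.49, -0.24, -0.46 and -0.79 (adjusted p = 0.0011).

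**Figure D2:**
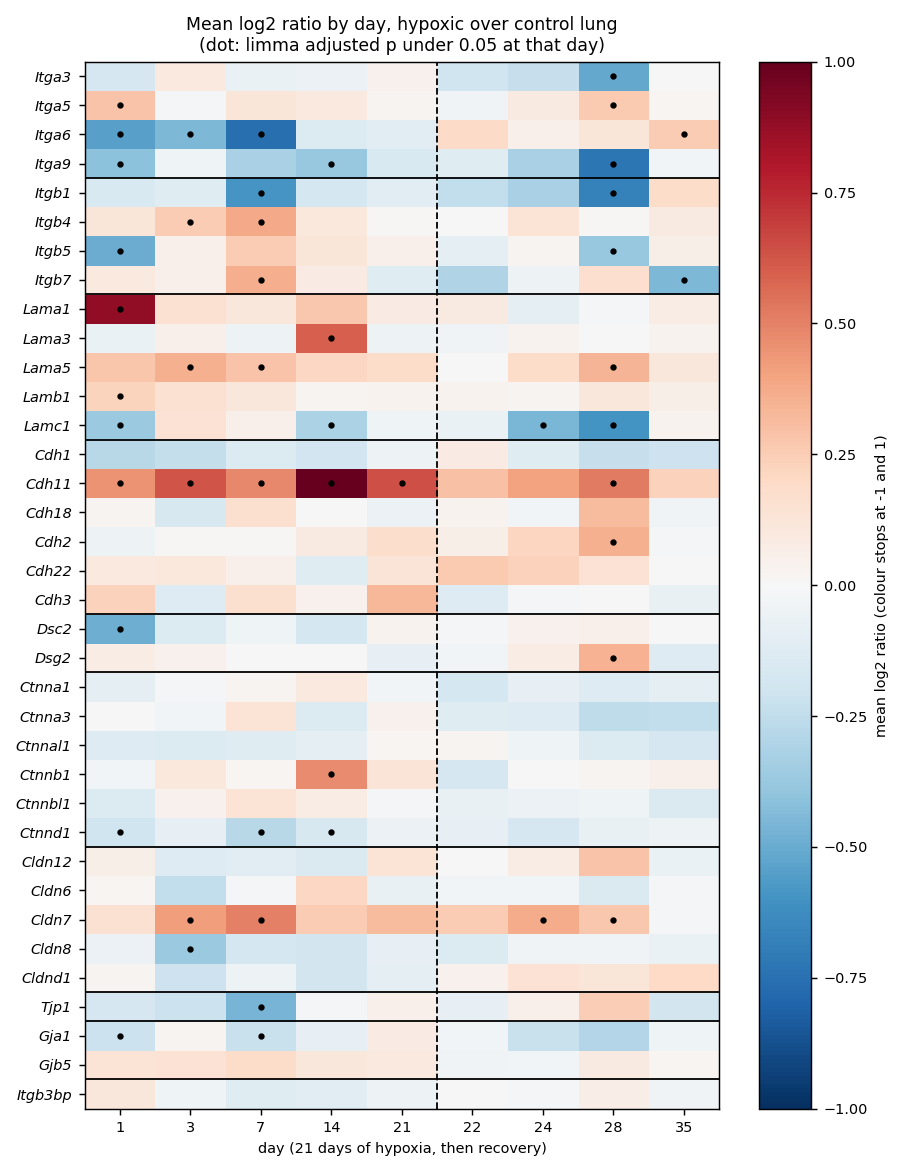
Mean log2 ratio, hypoxic over control lung, of the 36 genes (rows, by family) at each of the 9 days (columns), with dots where limma's adjusted p is under 0.05 at that day. Itga6 is lowest at days 1 to 7, Cdh11 is above 0 at every day with its highest value at day 14, and Itga9, Itgb1 and Lamc1 are lowest at day 28.

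The laminins gave 3 rises and no fall among 5 chains over hypoxia, against 24.7% of all features higher and 17.7% lower. The median of the 5 chains was 0.109, against 0.026 over all features. Lama5, the α5 chain of the main laminins of adult lung epithelium and vessels, read 0.45, 0.69, 0.04 and 0.25 at day 3, its highest day, and 0.09, -0.01, -0.09 and 0.05 at day 22, its lowest. The first 2 arrays of day 3 and its last lay above all arrays of day 22, and the third lay among them. Lama5 averaged 0.26 ± 0.07 over the hypoxia days (SD, n = 5 days, limma adjusted p = 0.0016), with all 5 days above 0 and 18 of 20 arrays above 0. It passed under every alternative that averaged its spots. Its 2 spots differed, however: one averaged 0.46 (adjusted p = 0.00032) and the other 0.05 (adjusted p = 0.55).

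Lama1, the α1 chain of embryonic and epithelial basement membranes, was highest at day 1, with 0.81, 0.25, 1.26 and 1.22, and lowest at day 24, with -0.20, -0.31, 0.03 and 0.10. All arrays of day 1 lay above all arrays of day 24. Lama1 averaged 0.30 ± 0.33 over hypoxia (SD, n = 5 days, limma adjusted p = 0.022), and day 1, with a mean of 0.88 ± 0.47 (SD, n = 4 arrays), was the one day that passed alone (adjusted p = 0.0010). The replicate pairs disagreed on Lama1: arrays 3 and 4 gave 0.62 (adjusted p = 0.00034), and arrays 1 and 2 gave -0.02 (adjusted p = 0.89).

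Lamb1, the β1 chain, was 0.11 ± 0.08 over hypoxia (SD, n = 5 days, limma adjusted p = 0.043), and it held the call under 11 of 24 alternatives. Its 3 tested spots had means of -0.0013, 0.12 and 0.27. Lama3, the α3 chain of epithelial anchoring laminin, did not pass over hypoxia and was called at day 14, where its arrays read -0.40, 1.82, 0.63 and 0.33, the widest spread of any gene and day among the 36 (mean 0.60 ± 0.93, SD, n = 4 arrays, adjusted p = 0.042).

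Lamc1, the γ1 chain that most laminins share, was called at 4 single days and in neither phase. Its arrays read -0.31, -0.40, -0.30 and -0.46 at day 1, and -0.46, -0.67, -0.38 and -0.33 at day 24. At day 28 they read -0.70, -0.62, -0.36 and -0.71. All arrays of these 3 days lay below 0 (limma adjusted p = 0.00062, 0.00037 and 4.8e-07). Day 14 was also lower (-0.32 ± 0.21, SD, n = 4 arrays, adjusted p = 0.0018). Lamc1 was the average of 3 spots that lay apart: at day 28 they averaged -1.04, -0.43 and -0.33, and at day 1 they averaged -0.85, -0.27 and 0.02. At day 14 they averaged -0.83, -0.34 and 0.22. Over hypoxia the highest spot passed alone, as higher (0.19, limma adjusted p = 0.032). The middle spot did not pass (-0.09, adjusted p = 0.44), and the lowest had too few arrays to be tested. The lowest spot had values on 2 arrays at day 3 and 1 array at day 7, so the average of those days leans on the other spots.

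**Figure D3:**
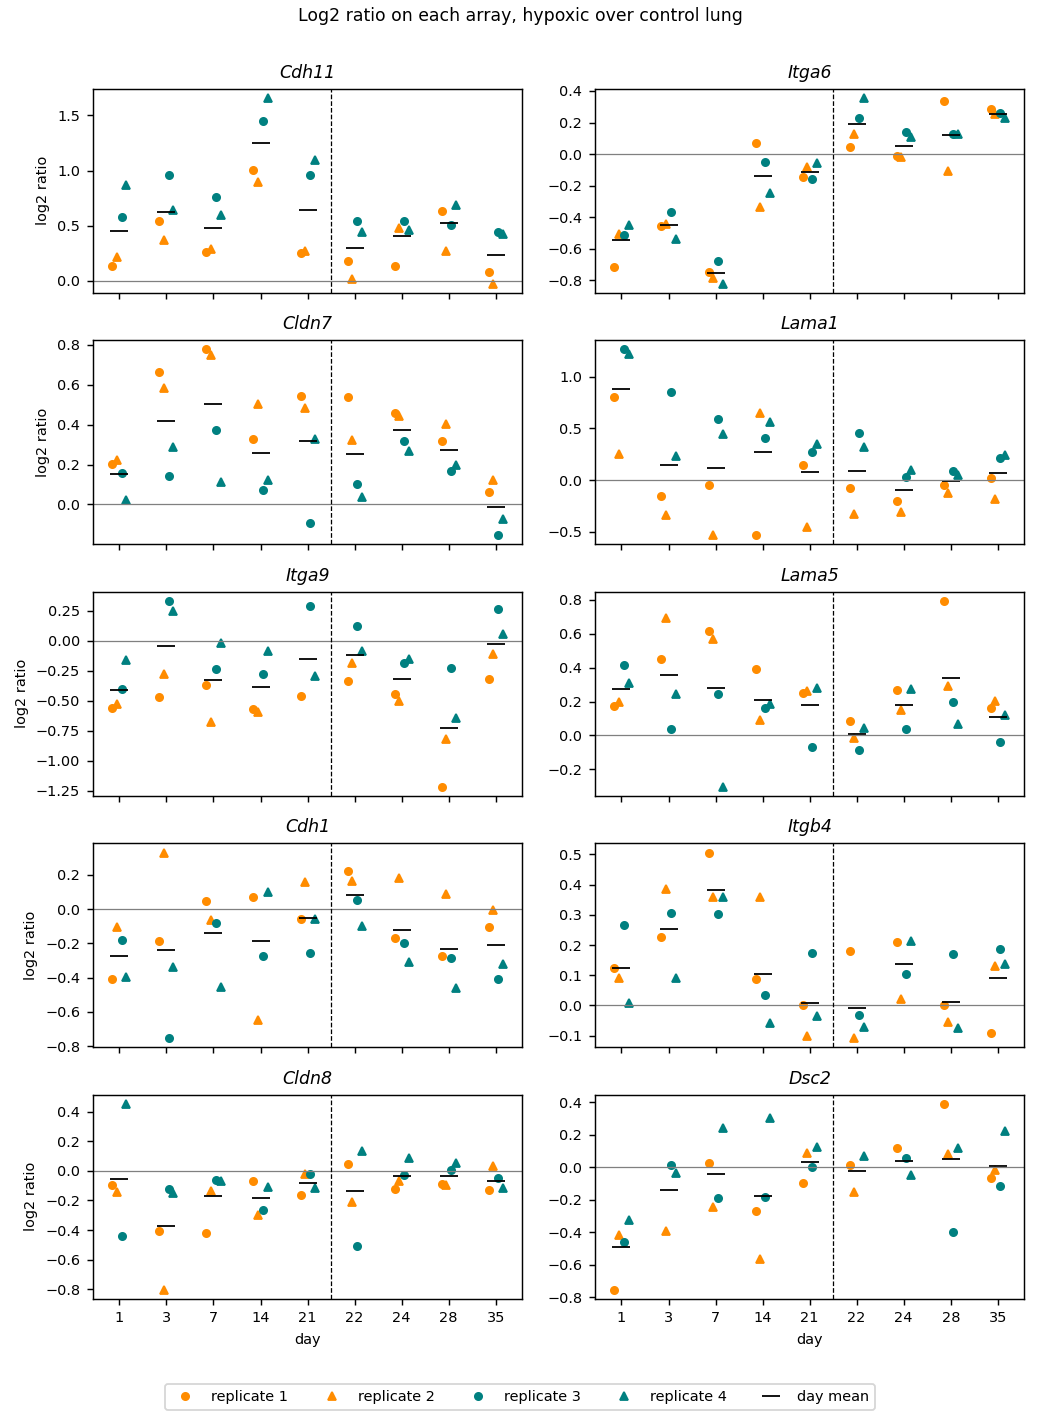
Log2 ratio, hypoxic over control lung, on each array by day (days 1 to 21 of hypoxia, then recovery days 22 to 35) for the 10 genes with the largest hypoxia mean among those that passed, with a mark per replicate and a dash for the day mean. The 4 Itga6 arrays of day 7 lie together near -0.76, whereas the Lama1 arrays of days 3 to 21 are spread on both sides of 0.

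Cdh11 had the largest change of all 36 genes. Cdh11 (cadherin-11, or OB-cadherin) is a cadherin of mesenchymal cells, fibroblasts among them. At day 14 its arrays read 1.00, 0.90, 1.45 and 1.66, a mean of 1.25 ± 0.36 (SD, n = 4 arrays, limma adjusted p = 2.95e-08), which is 2.38 times control. At day 35 they read 0.08, -0.03, 0.45 and 0.42, all below the arrays of day 14. Cdh11 averaged 0.69 ± 0.33 over the hypoxia days (SD, n = 5 days, adjusted p = 0.00035), or 1.61 times control, and was above 0 on 20 of 20 arrays. Its phase mean passed under every alternative, with 0.42 in arrays 1 and 2 and 0.96 in arrays 3 and 4. Singly it passed at each of the 5 hypoxia days, but without replicate 3 the calls of days 1, 7 and 21 were lost, and without replicate 4 those of days 1 and 21.

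Cdh1, the E-cadherin of epithelium, moved the other way. It read -0.41, -0.11, -0.18 and -0.40 at day 1, its lowest day, and 0.22, 0.16, 0.05 and -0.10 at day 22, its highest. All arrays of day 1 lay below all arrays of day 22, though narrowly. Cdh1 averaged -0.18 ± 0.09 over hypoxia (SD, n = 5 days, limma adjusted p = 0.014), with 15 of 20 arrays below 0. Arrays 1 and 2 gave -0.09 (limma adjusted p = 0.34) and arrays 3 and 4 gave -0.27 (adjusted p = 0.0054). Cdh1 kept the call under 20 of 24 alternatives. It lost the call in arrays 1 and 2 alone, and without replicate 3, day 1 or day 3. One of its 2 spots passed (-0.30, adjusted p = 0.0026) and the other did not (-0.08, adjusted p = 0.36). At day 1 the spot that passed averaged -0.13 and the other -0.42, so the low of that day came mostly from the latter. The spot that passed was lowest at day 14 (-0.47). Cdh2, Cdh3, Cdh18 and Cdh22, the N-, P- and 2 mainly neural cadherins, did not pass over hypoxia, and their means lay between -0.01 and 0.13.

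Of the desmosomal cadherins, Dsc2 fell over hypoxia and Dsg2 did not pass (0.01). Dsc2, desmocollin-2, read -0.75, -0.42, -0.46 and -0.32 at day 1, its lowest day, and 0.39, 0.08, -0.40 and 0.12 at day 28, its highest. The third array of day 28 lay within the range of day 1. The hypoxia mean of Dsc2 was -0.16 ± 0.20 (SD, n = 5 days, limma adjusted p = 0.049), close to the threshold, and 10 of 23 alternatives kept the call.

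The catenins gave 1 fall among 6 genes, against 17.7% of all features lower. Ctnnd1, p120-catenin, which holds cadherins at the membrane, averaged -0.15 ± 0.09 over hypoxia (SD, n = 5 days, limma adjusted p = 0.010), with 18 of 20 arrays below 0 and calls at days 1, 7 and 14. Of its 3 spots, one averaged -0.41 (adjusted p = 0.00090) and the others -0.06 and 0.01, so 1 spot carried the change. Ctnna1, α-catenin, averaged near 0, with spots that went in opposite directions: one was -0.37 and the others 0.15 and 0.21 (adjusted p = 0.0013, 0.018 and 0.013). Ctnnb1, β-catenin, which links cadherins to α-catenin and carries Wnt signals, averaged 0.14 ± 0.20 and did not pass (adjusted p = 0.10). It was called at day 14 alone, where its arrays read -0.03, 0.34, 0.71 and 0.87. Arrays 3 and 4 of that day were the highest of the gene.

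Among the claudins, Cldn7 rose and Cldn8 fell, while Cldn6, Cldn12 and the claudin-domain gene Cldnd1 did not pass. Cldn7, a tight-junction claudin of airway and other epithelia, read 0.78, 0.75, 0.38 and 0.11 at day 7, its highest day, and 0.06, 0.12, -0.15 and -0.07 at day 35, its lowest. The last array of day 7 (0.11) lay within the range of day 35. Cldn7 averaged 0.33 ± 0.14 over hypoxia (SD, n = 5 days, limma adjusted p = 0.0015), or 1.26 times control, with 19 of 20 arrays above 0. It passed under every alternative, with 0.51 in arrays 1 and 2 and 0.15 in arrays 3 and 4.

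Cldn8, a sealing claudin best known from kidney tubules, read -0.41, -0.80, -0.13 and -0.15 at day 3, its lowest day, and -0.12, -0.07, -0.03 and 0.09 at day 24, its highest. The arrays of day 3 lay below those of day 24, the nearest of them narrowly. Cldn8 averaged -0.17 ± 0.12 over hypoxia (SD, n = 5 days, limma adjusted p = 0.011), with 19 of 20 arrays below 0. Tjp1, the scaffold ZO-1 under tight junctions, averaged -0.16 ± 0.20 and did not pass (adjusted p = 0.097), and the pairs differed for it, with -0.35 in arrays 1 and 2 and 0.03 in arrays 3 and 4. At day 7 Tjp1 did pass, with arrays of -0.76, -0.63, -0.28 and -0.19 (adjusted p = 0.00083), all below 0.

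Of the connexins, Gjb5, a connexin of skin and other epithelia, averaged 0.14 ± 0.03 over hypoxia (SD, n = 5 days, limma adjusted p = 0.010), the most even of the changes over days, but with 0.03 in arrays 1 and 2 and 0.24 in arrays 3 and 4. Gja1, the most widespread connexin, which joins alveolar, vascular and smooth muscle cells, averaged -0.08 ± 0.14 (adjusted p = 0.27). It passed at days 1 and 7, with means of -0.21 and -0.22. Itgb3bp was -0.04 ± 0.09 and did not pass (adjusted p = 0.43).

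Of the 13 genes that passed over hypoxia, 5 passed in each replicate pair alone (Cdh11, Cldn7, Itga6, Itgb4 and Lama5), against 36.4% of the 5087 called features with values in both pairs. Another 7 had the same sign in both pairs and passed in one of them, and Lama1 did not have the same sign. Over all 36 genes, 19 had the same sign in both pairs, about as many as did not. The shares of all features with the same sign were not counted, so these sign counts cannot be set against a background.

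**Figure D4:**
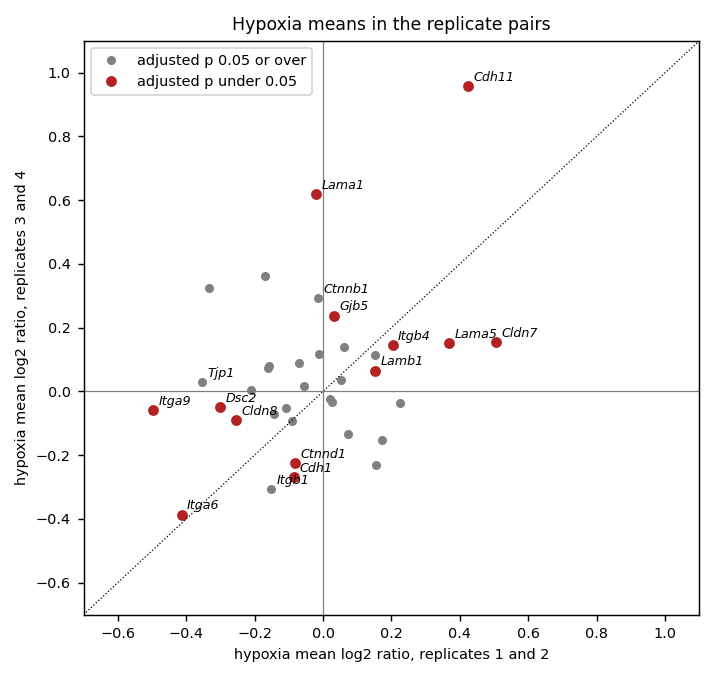
Hypoxia mean log2 ratio of each of the 36 genes in replicates 1 and 2 (horizontal axis) and in replicates 3 and 4 (vertical axis), with the line of equality dotted. Itga6 lies near the line, Cdh11 and Lama1 lie above it, and Itga9 and Tjp1 lie below 0 on the horizontal axis and near 0 on the vertical one.

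In the recovery phase, none of the 36 genes passed, against 4.77% of all features, 1.65% higher and 3.12% lower (limma on the means of the 4 recovery days). At an unadjusted p under 0.05 the count was 13 (36.1% of the genes, against 29.9% of all features), and the lowest adjusted p was 0.051, for Ctnna3, an α-catenin first known from heart and testis, at -0.19 ± 0.07 (SD, n = 4 days). Cdh11 had the highest recovery mean, 0.36 ± 0.13 (adjusted p = 0.062), with 15 of 16 arrays above 0. Cldn7 was 0.22 ± 0.16 and Lama5 0.16 ± 0.14, and the lowest were Itga9 at -0.30 ± 0.31, Lamc1 at -0.27 ± 0.30 and Itgb1 at -0.27 ± 0.35 (SD, n = 4 days each, adjusted p between 0.068 and 0.14). The recovery count moved with the setting: with every array scaled to 1 spread it was 9 genes, 5 higher (Cdh11, Cdh22, Cldn7, Cldnd1 and Lama5) and 4 lower (Ctnna1, Ctnna3, Itga3 and Itga9). Over all features, 3102 passed in recovery under that scaling, against 580 as deposited, so the added calls were not particular to these genes. Leaving out day 35 gave 3, Cldn7, Itga3 and Itgb1.

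No gene of the 36 passed in the test of hypoxia minus recovery, where 0.0329% of all features passed, and 5 were under an unadjusted p of 0.05 (13.9%, against 15.2% of all features). A steady rise or fall with log2 day within hypoxia was called for none of the genes and for 0% of all features, and 3 were under an unadjusted p of 0.05 (8.33%, against 2.74% of all features), the lowest p being that of Lama1 (adjusted p = 1). From day 21 to day 22, the first day after the exposure, none passed either, against 0.611% of all features. The lowest adjusted p there was again that of Itga6 (0.18), whose arrays read 0.04, 0.13, 0.23 and 0.36 at day 22 and -0.14, -0.08, -0.16 and -0.06 at day 21, without overlap. In the opposite direction, Cdh3, the P-cadherin of basal cells, read 0.17, -0.38, -0.10 and -0.19 at day 22 and 0.40, 0.42, 0.27 and 0.23 at day 21. The 2 genes under an unadjusted p of 0.05 (5.56%, against 5.27% of all features) were Itga6 and Cdh3, and they were named after their values were seen.

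By single day, with limma on the 36 arrays, the genes that passed numbered 11 at day 1 (30.6%, against 19.7% of all features), 6 at day 3 (16.7%, against 23.3%), 10 at day 7 (27.8%, against 36.0%), 6 at day 14 (16.7%, against 27.8%) and 1 at day 21 (2.78%, against 4.57%). In recovery they numbered 0 at day 22 (against 1.57%) and 2 at day 24 (5.56%, against 2.93%). Day 28 had 11 of 35 (31.4%, against 32.2%), Gja1 having values on 2 arrays there, and day 35 had 2 (5.56%, against 3.19%). At an unadjusted p under 0.05, the count at day 22 was 7 (19.4%, against 9.83% of all features). Few calls were made at days 21 and 22, among these genes and among all features. Day 1 had as many calls among these genes as day 28, while over all features it had fewer than days 3, 7, 14 and 28. The single call at day 21 was Cdh11, and the calls of day 24 were Cldn7 (higher) and Lamc1 (lower). Of the 49 calls in all, 25 were higher and 24 lower, and 27 remained with the replicate pair as a random block, which allows for the likeness of arrays within a pair. Among the days named above, the calls lost under that block were those of Cdh11 and Ctnnd1 at day 1, Gja1 at days 1 and 7, Itgb4 at day 3, Itgb7 at days 7 and 35, Lama3 and Ctnnd1 at day 14, Cldn7 at day 24, and Itga6 at day 35 (adjusted p between 0.064 and 0.27). The calls of Cldn8 and Lama5 at day 3 were lost under that block too. With every array scaled to 1 spread the counts were 5 at day 22 and 12 at day 24, with no share of all features to set beside them. Cldn7 at day 24 was also lost whichever replicate was left out. At day 35 no gene passed without replicate 1 or without replicate 4.

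At day 28, after 7 days of recovery, 5 of the genes were lower and 6 higher than in control lung, where 13.6% of all features were lower and 18.6% higher. Lower were Itgb1, Itga9, Itga3, Itgb5 and Lamc1, and higher were Cdh11, Cdh2, Dsg2, Cldn7, Lama5 and Itga5. Itgb1 read -1.47, -0.45, -0.29 and -0.48 on the 4 arrays, and all were below 0 (mean -0.67 ± 0.54, SD, n = 4 arrays, limma adjusted p = 4.7e-05). Itga3 read -1.14, -0.20, -0.16 and -0.56. For both genes the first array was the lowest by far, and it was also the array with the widest spread of all ratios. Without that array the means were -0.41 for Itgb1 (adjusted p = 0.0030) and -0.31 for Itga3 (adjusted p = 0.057), so Itgb1 kept its call and Itga3 lost it.

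Without the first array of day 28, 6 genes passed at that day. They were Itga9 (-0.56), Itgb1 (-0.41) and Lamc1 (-0.56), which were lower, and Cdh11 (0.48), Dsg2 (0.30) and Cdh22, which were higher, and 5 of them were among the 11. Lost were Cdh2, Cldn7, Itga3, Itga5, Itgb5 and Lama5. With the replicate pair as a random block, 7 of the 11 calls of day 28 remained, and Cdh2, Cldn7, Itgb5 and Lama5 were lost. Dsg2, desmoglein-2 of desmosomes, read 0.49, 0.23, 0.36 and 0.32, and Cdh2, N-cadherin, read 0.58, 0.30, 0.14 and 0.41. All 4 arrays of both genes lay above 0. At day 35 the Itgb1 arrays read 0.23, 0.21, 0.19 and 0.10, above all arrays of day 28 and of day 24 (-0.31, -0.43, -0.27 and -0.28).

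**Figure D5:**
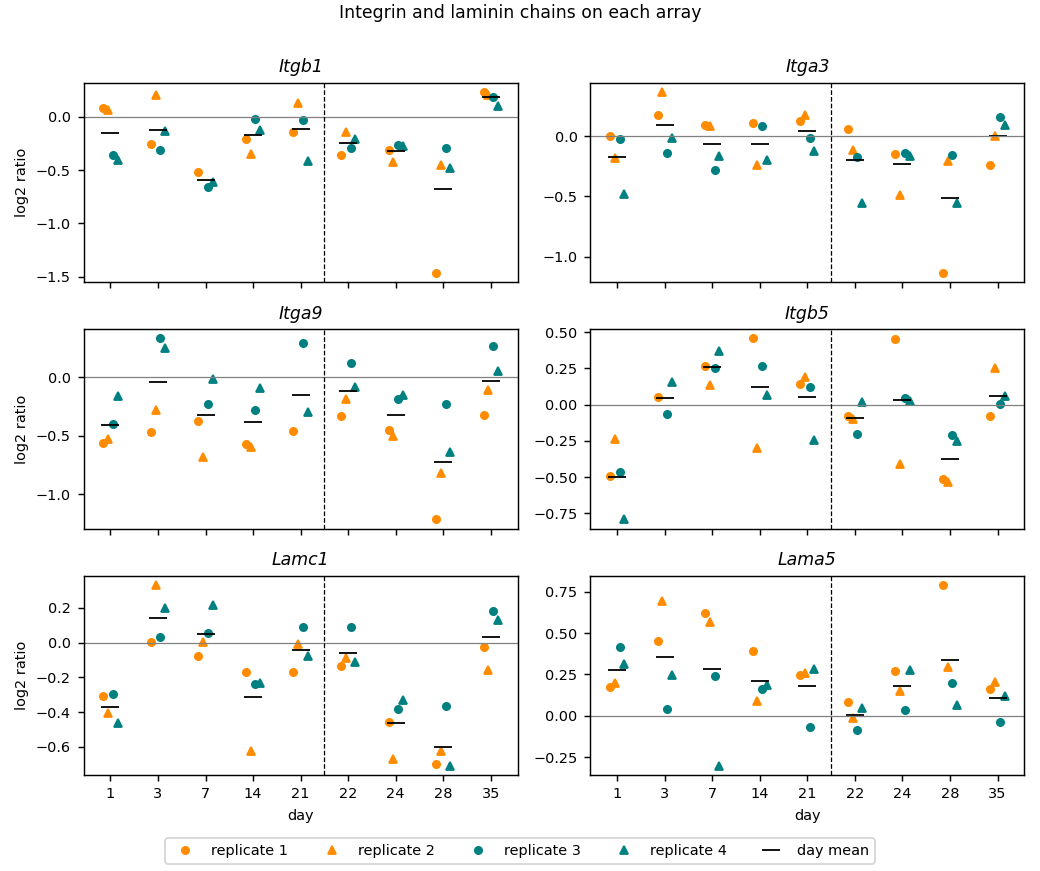
Log2 ratio, hypoxic over control lung, on each array by day for 4 integrin and 2 laminin chains called at day 28, each panel on its own scale, with a mark per replicate and a dash for the day mean. The first array of day 28 is the lowest for Itgb1 (-1.47) and Itga3 (-1.14), and the 4 arrays of Lamc1 at that day all lie at or below -0.36.

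The neighbours of these genes in their pathways were counted from lists, to be read against the 24.7% of all features that were higher and the 17.7% that were lower over hypoxia. Of 12 measured basement membrane genes other than laminins, 7 were higher and none lower over hypoxia (median 0.273, against 0.026 over all features). They included Sparc, a collagen-binding matrix protein (0.66 ± 0.18), Col4a2, a chain of type IV collagen (0.85 ± 0.10), and Dag1, the laminin receptor dystroglycan (0.33 ± 0.11, SD, n = 5 days each). Of 13 focal adhesion genes, which tie integrins to actin, 3 were higher and 5 lower (median 0.013), among them Pdlim7 (-1.31), the kindlin gene Fermt2 (-0.48) and the parvin gene Parva (0.27). Of 16 partners of junction proteins, 3 were higher and 5 lower (median -0.0014), among them the desmosomal plaque protein periplakin, Ppl (-0.43), the scaffold Magi3 (-0.48) and the polarity gene Pard3 (-0.21). In recovery, Ppl (-0.26, limma adjusted p = 0.039) and the junction adhesion molecule F11r (-0.27, adjusted p = 0.047) were lower, and no gene of the focal adhesion and basement membrane lists passed.

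Markers of lung cell types were counted in the same way, and no gene of the macrophage and cardiac muscle lists was measured. Of 7 measured epithelial markers, 4 were higher over hypoxia and none lower (Krt7, Muc1, Krt19 and Epcam, against 24.7% of all features higher and 17.7% lower, median of the 7 at 0.158, lowest -0.08 and highest 0.46), and none passed in recovery (median -0.08). Of 8 endothelial markers listed, 2 were measured, Cdh5 and Emcn, and both were higher over hypoxia (0.27 and 0.66). Of 2 smooth muscle markers, Myl9 was higher (0.30) and Cnn1 did not pass (0.10), and the neutrophil markers S100a9 (-1.51) and Ltf (0.68) went in opposite directions. The single measured platelet marker (Ppbp) and lymphocyte marker (Ighm) did not pass. In recovery, Emcn was higher (0.55) and Cnn1 lower (-0.32). At day 28, 3 epithelial markers were lower and 1 higher, against 13.6% of all features lower and 18.6% higher. The part of cell makeup in the changes of integrins, laminins and junction genes was not tested.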

How the data were processed

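Per the labels' protocols, the authors scanned 2-colour cDNA arrays of pooled lung RNA, corrected background, removed flagged spots and normalised the ratios by lowess, and they deposited log2 ratios, which were taken unchanged, removed spots staying empty. The direction rests on the order of samples and dyes in the protocol. Channel intensities were not used here, so signal over background is unknown, and precision is limited by how many arrays there are. An array held 14186 to 15042 values.

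Of 15388 spots, the platform annotation gave 9598 a single symbol, 514 several and 5276 none. Entrez identifiers of 9510 matched RefSeq (GRCm38.p6), and 0 symbols changed. On each array the spots of 1 gene were averaged, giving 12761 features. The 36 genes, and the lists of pathway genes and markers, were chosen with earlier results of these data known.

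Tests used limma 3.58.1 in R 4.3.3, two-sided, and p-values were adjusted by Benjamini-Hochberg across every feature in the test, with 0.05 as the threshold. Phases, their difference and the trend on log2 day were fitted on 9 day means for features with at least 2 arrays at every day. Single days and day 22 minus day 21 were fitted on 36 arrays, for features with at least 3 of 4 arrays at that day. The fits were tested on simulated data. Same-numbered arrays of days 22 and 21 deviated together (correlations of 0.599, 0.53, 0.667 and 0.307 for replicates 1 to 4), which is a hint from the data and not stated in the labels, and the block left the count at 0. Alternatives were 2 scalings, other filters, a robust fit, each spot alone, each replicate pair, arrays as units, random blocks, and leaving out replicates, days or the widest array. The last of these and leaving out days 21 and 22 together were chosen after seeing the data.

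Named with values are genes past the threshold in a phase comparison or at 3 or more days, the lowest p of a family with none, and 6 defining lung genes. Array values are given for the 10 largest of those. Other genes, and other days, were named after their values were seen. A search for motifs used RefSeq promoter windows on both strands.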

Additional observations from a re-analysis of the deposited data

Results flagged for a closer look

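Of 163 sets of 4 arrays tested (19 named genes at each day with a full set), 7 had 1 array far from the other 3 by Dixon's test, which is 4.3%, and chance gives about 1 in 20. In recovery, Itgb1 at day 28 read -1.47 on the first array, against -0.48 to -0.29 on the others, and Ctnnb1 at day 28 read -0.12 on the second, against 0.07 to 0.09. In hypoxia, Itgb3bp at day 7 read -0.58 on the second array, against 0.02 to 0.04. Lama5 at day 21 read -0.07 on the third array, against 0.25 to 0.28. Lamb1 stood apart at 2 days: it read 0.33 on the first array of day 1, against 0.17 to 0.20, and -0.04 on the fourth array of day 7, against 0.15 to 0.18. Lamc1 at day 14 read -0.62 on the second array, against -0.24 to -0.17.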

How the results depend on the processing

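The count of genes past the threshold over hypoxia (13) lay between 8 and 13 when a replicate was left out, the lowest without replicate 3, and was 22 with the 36 arrays as units, both with the replicate block and without it. Under the other alternatives it lay between 10 and 15. Cdh11, Cldn7, Itga6 and Lama5 passed under every alternative that averaged a gene's spots. With each spot on its own, the lower Lama5 spot did not pass (0.05, limma adjusted p = 0.55). Lama1 reversed in replicates 1 and 2 alone (-0.0195, adjusted p = 0.888), and the cause was not tested. The recovery count (0) was 1 with median centring, 9 with a common spread, 2 in replicates 1 and 2 alone, 2 in replicates 3 and 4 alone, 3 with each spot on its own, and 16 with arrays as units, with or without the replicate block. It was 1 without day 7, 2 without day 14, 3 without day 35, and between 0 and 2 when a replicate was left out. With a common spread, 3102 features were called in recovery, 51.5% of them higher, against 580 features and 34.7% as deposited. For the other alternatives the shares of all features are not given here, so their counts cannot be set against a background. The difference between phases (0) gave 11 with the replicate block and 6 without it on arrays, and 1, Itga6, without day 21. By day, the counts with a common spread were 12, 6, 6, 3, 3, 5, 12, 11 and 4 at days 1, 3, 7, 14, 21, 22, 24, 28 and 35, against 11, 6, 10, 6, 1, 0, 2, 11 and 2 as deposited. Day 24 gave 6 with the replicate block, and day 28 gave 5 without replicate 1. The single-day total (49) was 27 with the replicate pair as a random block and between 35 and 45 when a replicate was left out. Without the first array of day 28, 6 of that day's calls were made, against 11. Day 22 minus day 21 (0) gave 1, Itga6, with a common spread. The trend gave 0 throughout. Same-numbered arrays of different days deviated together with a median correlation of 0.377 (lowest -0.12), against -0.251 for different numbers, so the block is a hint from the data. For the 29 genes with 1 spot, nothing checks the spot, and without intensities the precision of a single ratio is unknown.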

Other observations

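Spots that the platform annotation gives to several genes were kept out of the 36. Of these, 7 carried the symbol of a gene of these families. The spot shared by Cldn3 and Wbscr25 had mean log2 ratios of 0.23 over hypoxia and 0.05 over recovery. Itga2b, the platelet integrin chain, shared 3 spots with Sp110, which averaged -0.63, -0.12 and -0.03 over hypoxia and -0.28, -0.16 and -0.11 over recovery, and 1 spot with D17Ertd648e, at -0.14 and -0.12. The spot of Itga5 and Got2 stood at -0.03 and -0.10, and that of Wwc2 and Cldn22 at -0.12 and -0.02. These are means over days, untested, and they cannot be given to either gene of a spot.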
